A study of Mus musculus with 4 samples.

Results

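MHC class I molecules carry peptides from inside the cell to its surface, where CD8 T cells read them. Peptides cut by the proteasome are pumped into the endoplasmic reticulum by the transporter TAP. There they are trimmed by the aminopeptidase Erap1 and fitted into the class I groove by a loading complex of tapasin, calreticulin and the oxidoreductase Pdia3. Nlrc5, a NOD-like receptor family protein, acts in the nucleus as the transactivator of class I genes, and skeletal muscle fibres are known for very low class I levels at rest. The 10 genes described here are Nlrc5, the TAP subunits Tap1 and Tap2, tapasin (Tapbp), its relative Tapbpl, Erap1, beta-2-microglobulin (B2m) and the lectin chaperone system of Calr, Canx and Pdia3.

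These genes were followed in C2C12, a permanent line of mouse myoblasts whose cells fuse into myotubes when serum is lowered. Treated cultures received interferon-gamma (IFN-γ) at 1 ng/ml during differentiation and were taken on day 3, and controls were the same cells on day 3 without the cytokine. Both groups were in differentiation medium with horse serum, whose percentage differs between the labels. RNA of the 2 groups was compared directly on 4 two-colour Agilent arrays, with treated RNA in Cy5 and control RNA in Cy3 on every array. Dye and treatment therefore cannot be told apart in any single ratio, and the labels name replicates 1 to 4 without saying whether the controls were separate cultures, so the spread between arrays may be partly technical. Members were chosen as the probes whose transcript maps to 1 of the 10 symbols. This gave 11 probes on 20 spots per array, out of 39429 probes and 19751 named genes. Nlrc5 had 2 probes, Tap1 had 1 probe printed in 10 spots, and each of the other genes had 1 probe in 1 spot.

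Levels below are spot intensities on the log2 scale after background correction and normalisation, and the log2 ratio is treated over control on the same array. All 11 probes were bright enough to be tested, which took a signal marked as well above background on 3 or 4 arrays, all in 1 of the channels. Erap1 and the second Nlrc5 probe passed only in treated RNA, where they were higher, so they lend no support to the counts below. Of all tested probes 2881 were not above background in Cy3 on any array, against 0 in Cy5. A probe was called at an adjusted p under 0.05 in the limma fit over all 28920 tested probes. Of the 11 probes 10 were higher in treated cells and 0 were lower, covering 9 of the 10 genes. Among all tested probes 16.5% were called higher and 12.6% lower. At least 2-fold rises were called for 7 of the 11 probes, against 1.45% of all tested probes. Treated values did not overlap control values for 11 of the 11 probes (17.8% of all tested probes). For Canx this rests on 3 arrays, since its flagged spot on replicate 2 was left out. With that spot kept, its ratio on replicate 2 was -0.04. The other 10 probes had a log2 ratio above 0 on 4 of 4 arrays (27.1% of all tested probes). The median log2 ratio was 1.85 over the 11 probes and 0.01 over all tested probes. Median centring in place of loess placed the median of all tested probes at 0.50, with 16462 probes higher and 6321 lower (72.3% of calls higher) against 4777 and 3634 (56.8%) under loess. Under that setting the member median was 2.76 and all 11 probes were called higher.

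**Figure D1:**
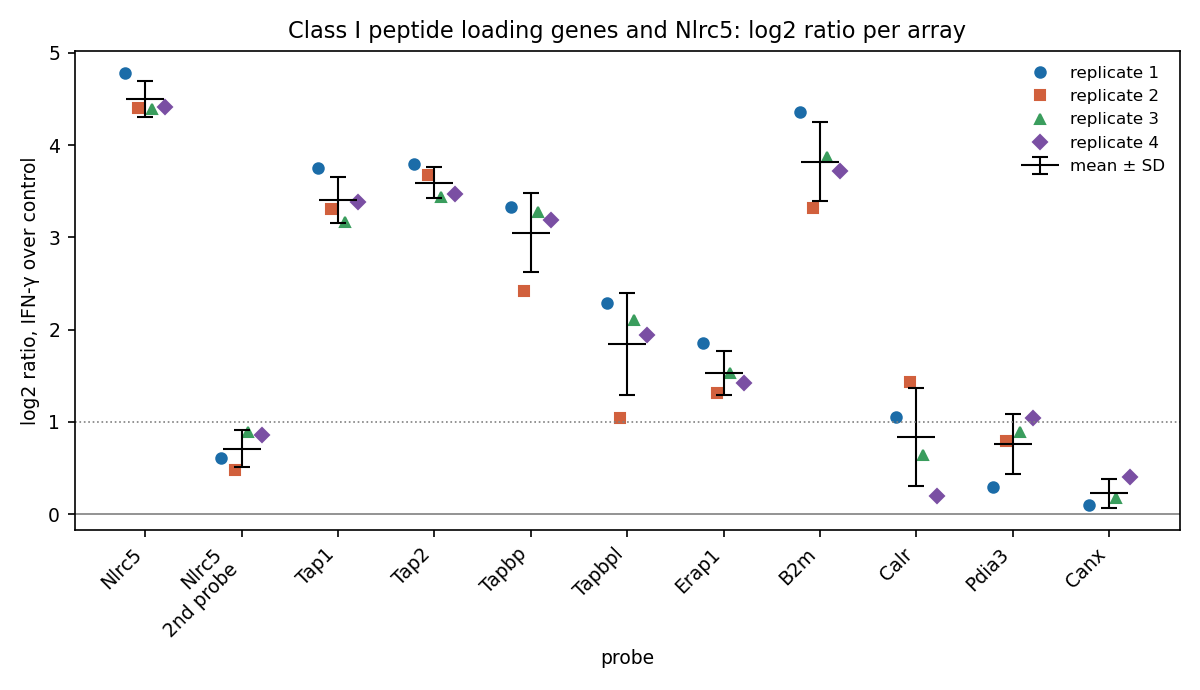
Log2 ratio of IFN-γ over control for each of the 11 probes (x axis) on each of the 4 arrays (coloured symbols), with the mean ± SD in black; the solid line is no change and the dotted line 2-fold. The first Nlrc5 probe, Tap1, Tap2, Tapbp and B2m lie above 2 on every array, whereas Calr, Pdia3 and Canx lie below 1.5.

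The transactivator gene rose on both of its probes, by very different amounts. Nlrc5 had normalised intensities of 13.47, 13.27, 13.50 and 13.08 in treated RNA of replicates 1 to 4, against 8.68, 8.86, 9.11 and 8.67 in control RNA (log2). All 4 treated values lay above all 4 control values. The log2 ratio was 4.50 ± 0.19 (SD, n = 4), a 22.6-fold rise with an adjusted p of 8.70e-06. It ranked 20 among the 28920 tested probes.

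The second Nlrc5 probe, annotated to the same transcript, gave a much smaller rise. Its intensities were 7.60, 7.36, 7.77 and 7.71 in treated RNA, against 6.99, 6.88, 6.88 and 6.85 in control RNA, close to background. The groups did not overlap, and the log2 ratio was 0.71 ± 0.20 (SD, n = 4, adjusted p = 0.00467). In control RNA this probe was well above background on 2 of 4 arrays, and the first probe on 4 of 4. The second probe moved with the processing, to 1.49 with Feature Extraction's own ratios and 0.31 under centring on the tested probes, and it was called higher in both. The first probe had 4.86 and 5.02 under these settings.

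Both subunits of the peptide pump rose. Tap1, which with Tap2 forms the ATP-driven channel into the endoplasmic reticulum, had intensities of 10.87, 10.58, 10.80 and 10.59 in treated RNA, against 7.12, 7.27, 7.63 and 7.21 in control RNA. Its log2 ratio was 3.40 ± 0.25 (SD, n = 4, adjusted p = 3.33e-05), a 10.6-fold rise. Tap2 had 15.09, 15.13, 15.25 and 15.21 in treated RNA, against 11.30, 11.45, 11.81 and 11.75 in control RNA. Its log2 ratio was 3.59 ± 0.17 (SD, n = 4, adjusted p = 1.50e-05), a 12.1-fold rise. Neither gene's treated and control values overlapped.

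The Tap1 probe was printed 10 times per array, which separates the error of a spot from that of an array. On replicates 1 to 4 the mean log2 ratio over the 10 spots was 3.75, 3.31, 3.17 and 3.38, with SDs over spots of 0.14, 0.11, 0.17 and 0.13. The SD between the 4 arrays, 0.25, was larger than the SD between spots on any of them. Tap1 was dim in control RNA, where unprocessed Cy3 spot intensities lay between 49 and 79.5 with local backgrounds of 29 to 43. On replicate 2 only 1 of the 10 control spots was well above background, against 10, 9 and 10 spots on replicates 1, 3 and 4. The fold of such a probe depends on the background step, and Tap1 had 4.01 with a smaller normexp offset of 16 and 5.16 (35.8-fold) with Feature Extraction's ratios. Tap2, well above background in both channels on 4 of 4 arrays, had 3.62 and 3.66 under the same settings. The order of the 2 subunits therefore turned with the background step, with Tap1 below Tap2 at the offset of 50 and above it under both other settings.

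**Figure D2:**
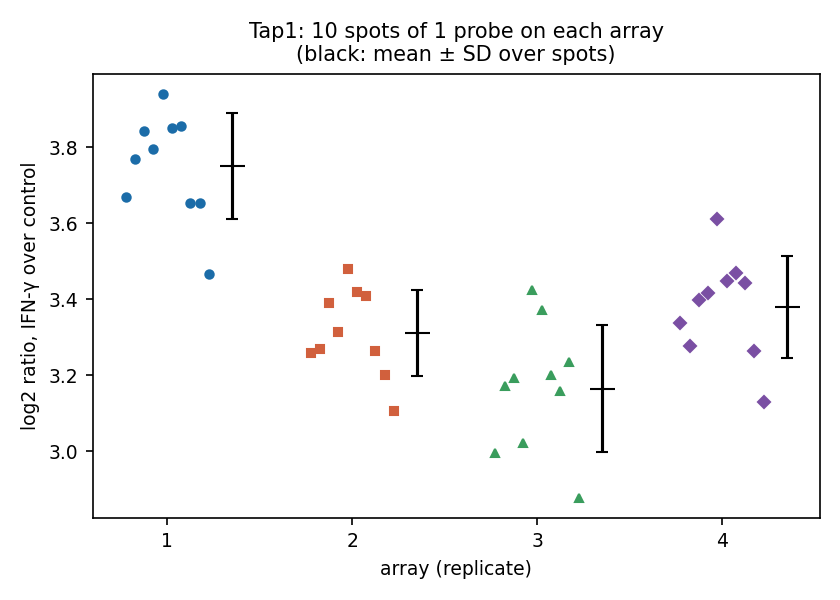
Log2 ratio of IFN-γ over control for the 10 spots of the Tap1 probe (coloured symbols) on each of the 4 arrays (x axis), with the mean ± SD over spots in black. Array means lie between 3.17 and 3.75, and the highest spots are on replicate 1.

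Tapasin, which bridges TAP to empty class I molecules and edits their peptides, and its relative both rose. Tapbp had intensities of 14.75, 14.01, 14.88 and 14.59 in treated RNA, against 11.42, 11.59, 11.61 and 11.40 in control RNA. Its log2 ratio was 3.05 ± 0.43 (SD, n = 4, adjusted p = 0.000265), an 8.30-fold rise. The ratio was 2.42 on replicate 2 and 3.19 to 3.33 on the other arrays. Tapbpl, which encodes the tapasin-related editor TAPBPR that works outside the loading complex, had 11.19, 9.92, 11.40 and 10.61 in treated RNA, against 8.90, 8.87, 9.29 and 8.67 in control RNA. Its log2 ratio was 1.85 ± 0.55 (SD, n = 4, adjusted p = 0.00330), a 3.60-fold rise, with 1.04 on replicate 2. Treated and control values did not overlap for either gene. Tapbp exceeded Tapbpl by 1.21 ± 0.14 in log2 ratio and was higher on 4 of 4 arrays (two-sided exact sign-flip p = 0.125, the smallest that 4 arrays allow). This difference varied less between arrays than either ratio did.

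Erap1, which trims peptides to the length that class I grooves accept, rose in treated cells, and its control signal was not well above background on any array. Its intensities were 8.51, 8.30, 8.39 and 8.23 in treated RNA, against 6.66, 6.99, 6.86 and 6.81 in control RNA. Under loess and the offset of 50 the rise was therefore at least 2.89-fold (log2 ratio 1.53 ± 0.23, SD, n = 4, adjusted p = 0.000636). The bound sets the treated mean against the higher, per array, of the Erap1 control signal and the dimmest probe that passed as above background; here it was the Erap1 signal each time. Like any value from 1 dye orientation, it is open to dye bias. The log2 ratio was 2.11 with the normexp offset of 16 and 3.68 with Feature Extraction's ratios, but 1.31 (2.48-fold) under median centring over the tested probes, so the bound holds for its own setting. Erap1 was called higher under each of these.

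B2m, the light chain shared by all class I molecules, rose strongly and was well above background in both groups on 4 of 4 arrays. Its intensities were 16.98, 16.74, 16.55 and 16.65 in treated RNA, against 12.62, 13.42, 12.68 and 12.93 in control RNA. The log2 ratio was 3.82 ± 0.43 (SD, n = 4, adjusted p = 0.000103), a 14.1-fold rise. Its unprocessed Cy5 intensities reached 302011, and no member was saturated on any array. Replicate 2 had the highest control value and the smallest ratio, 3.32.

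The promoter of B2m is shown because it was the only one of the members' available windows with a match to the core of the interferon-stimulated response element, the site bound by interferon regulatory factors. RefSeq promoter windows, build GRCm38.p6, were available for 7 of the 10 genes: Tap1, Tapbp, Erap1, B2m, Calr, Canx and Pdia3. The 250 bases before the start of each were searched on both strands. The core searched was GAAA, 2 bases of any kind and GAAA, found in 2.98% of 32851 windows, and capitals mark it in the sequence at chr2:122147437-122147686, plus strand, read 5′ to 3′.
B2m: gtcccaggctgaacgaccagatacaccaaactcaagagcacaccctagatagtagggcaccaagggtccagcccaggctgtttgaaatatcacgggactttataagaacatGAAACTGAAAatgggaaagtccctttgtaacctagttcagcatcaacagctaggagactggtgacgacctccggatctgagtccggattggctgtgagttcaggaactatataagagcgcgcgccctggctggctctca
The match lies 139 to 130 bases before the start. Of 415 tested genes with the response element core in their window, 27.7% were called higher and 10.1% lower, against 18.4% and 12.7% of 12470 tested genes with any window.

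**Figure D3:**
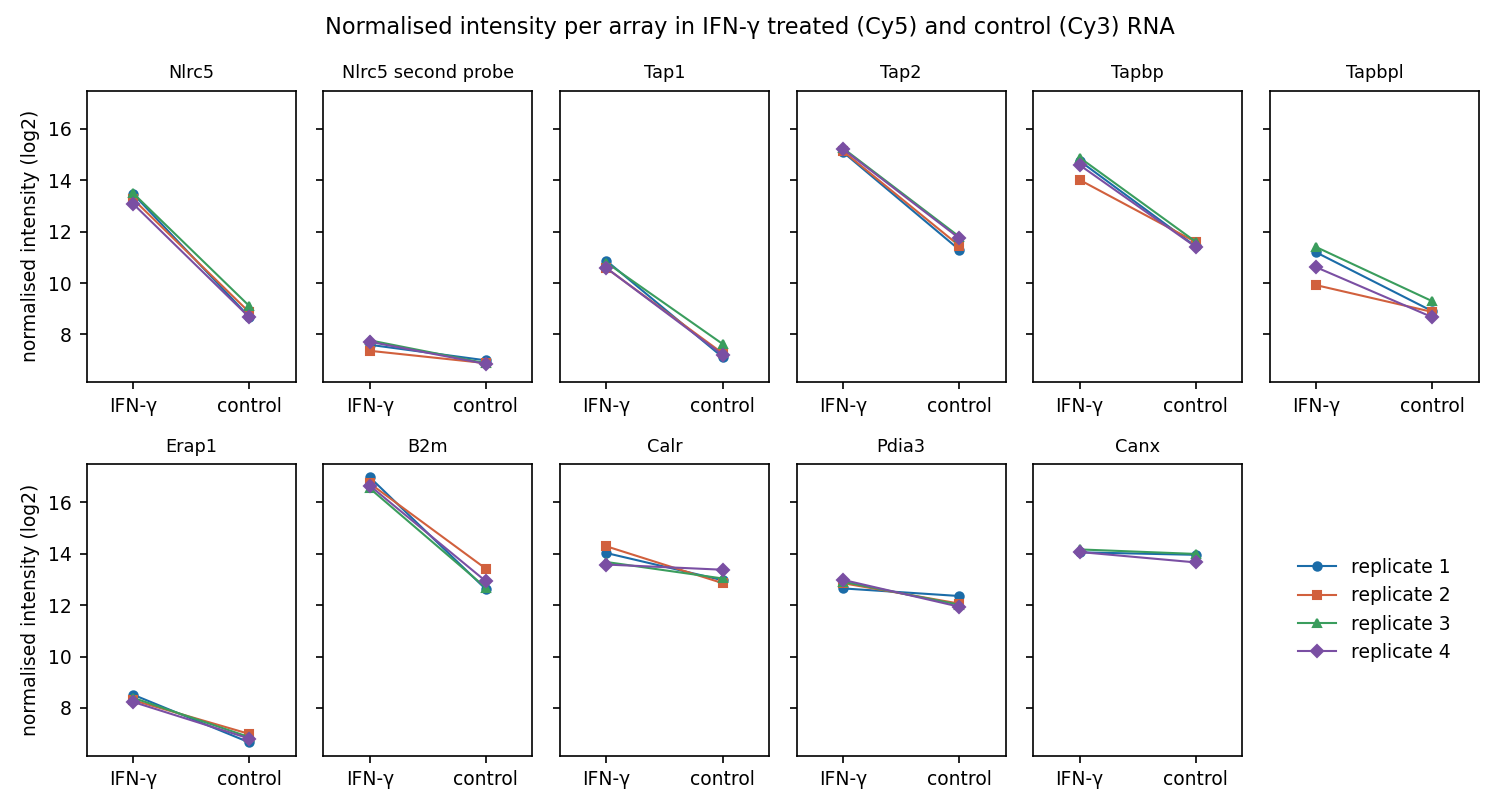
Normalised log2 intensity of each probe in IFN-γ-treated RNA (left of each panel) and control RNA (right) for the 4 arrays, each line joining the channels of 1 array. All lines fall from treated to control; the drop is steepest for the first Nlrc5 probe (4.50) and Canx is nearly level (0.23).

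The chaperones that class I shares with other glycoproteins rose less or did not pass the test. Calr, the calcium-binding lectin chaperone of the loading complex, had intensities of 14.03, 14.29, 13.68 and 13.58 in treated RNA, against 12.97, 12.86, 13.04 and 13.38 in control RNA. Its log2 ratio was 0.83 ± 0.53 (SD, n = 4, adjusted p = 0.0271) and ranged from 0.20 on replicate 4 to 1.43 on replicate 2. Without replicate 1 it was 0.76 with an adjusted p of 0.100, and without replicate 3 it was 0.90 with an adjusted p of 0.0871. Pdia3, the disulfide isomerase ERp57 that is linked to tapasin, had 12.65, 12.85, 12.91 and 12.98 in treated RNA, against 12.36, 12.06, 12.02 and 11.94 in control RNA. Its log2 ratio was 0.76 ± 0.32 (SD, n = 4, adjusted p = 0.0101). It lost its call without replicate 3 (0.71, adjusted p = 0.0608) and without replicate 4 (0.66, adjusted p = 0.0530). Calr and Pdia3 did not order the same way across arrays, with Calr higher on 2 of 4.

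Canx, the membrane-bound lectin chaperone calnexin that holds newly made class I heavy chains before B2m joins, did not pass the test. Its spot on replicate 2 was flagged as uneven in Cy3 and left out, so n is 3. The intensities were 14.05, 14.17 and 14.07 in treated RNA of replicates 1, 3 and 4, against 13.96, 13.99 and 13.66 in control RNA. The log2 ratio was 0.23 ± 0.16 (SD, n = 3, adjusted p = 0.133). With the flagged spot kept, a setting chosen after seeing the data, the ratio on replicate 2 was -0.04 and the mean 0.16 ± 0.19 (SD, n = 4). Under median centring Canx was called higher, with 1.31 over all probes and 0.80 over the tested probes, against medians of all tested probes of 0.50 and 0.03. The scaling thus decided the call for Canx.

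The promoters of Calr and Canx are shown because both held the endoplasmic reticulum stress element, a site of the unfolded protein response. The element searched was CCAAT, 9 bases of any kind and CCACG, which contains a CCAAT box and was found in 0.113% of the 32851 windows. Capitals mark it, on the reverse strand in Calr (chr8:84846932-84847181, minus strand) and on the forward strand in Canx (chr11:50325674-50325923, minus strand), each read 5′ to 3′ along its gene.
Calr: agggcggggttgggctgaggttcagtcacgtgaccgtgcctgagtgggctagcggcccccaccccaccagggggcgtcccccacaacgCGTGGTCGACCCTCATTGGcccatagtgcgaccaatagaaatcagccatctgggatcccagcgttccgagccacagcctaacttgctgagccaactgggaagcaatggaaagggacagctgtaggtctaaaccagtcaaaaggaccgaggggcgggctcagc
Canx: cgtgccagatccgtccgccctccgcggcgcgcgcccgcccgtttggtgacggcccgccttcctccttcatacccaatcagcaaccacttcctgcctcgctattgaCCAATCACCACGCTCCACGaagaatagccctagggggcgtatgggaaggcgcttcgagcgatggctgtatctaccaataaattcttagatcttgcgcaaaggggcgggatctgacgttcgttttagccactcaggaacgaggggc
The windows of Tap1, Tapbp, Erap1 and Pdia3 held neither this element nor the response element core. Among 20 tested genes with the stress element in their window, Calr and Canx included, 6 were called higher and 0 lower, and their median log2 ratio was 0.17. Of all tested genes with a window 18.4% were higher and 12.7% lower, with a median of 0.02. Among the listed genes with the element, Hsp90b1 (1.05), Hspa5 (0.82) and Ero1b (0.57) were called higher besides Calr. Creld2, Dnajc3, Pdia6, Derl3 and Syvn1 did not pass, with 0.19, 0.14, 0.13, -0.05 and -0.22. These values are from each gene's brightest tested probe, and the other Pdia6 probe had 0.61.

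The genes next to the members along the chromosome were read in the same way. In the mouse annotation Tap1 lies between Psmb9 and Psmb8, and Tap2 between Psmb8 and H2-Ob, in the class II region of chromosome 17. Psmb9 and Psmb8, catalytic subunits of the immunoproteasome, rose by 4.55 ± 0.22 and 4.86 ± 0.20 (SD, n = 4; adjusted p = 1.14e-05 and 7.83e-06). H2-Ob, a class II modulator, had 0.07 ± 0.07 and did not pass (adjusted p = 0.411). Of the 19 distinct genes next to a member, 16 were tested, with 3 called higher and 1 lower. Among all 15672 tested genes 18.8% were called higher and 12.9% lower, so the count higher was near that share. Besides Psmb8 and Psmb9, Cast, next to Erap1, was called higher with 0.44 ± 0.11, and Herpud1, next to Nlrc5, lower with -0.43 ± 0.29. The other 12 tested neighbours did not pass. Zbtb22 and Rgl2 beside Tapbp had 0.05 and 0.03, Patl2 and Trim69 beside B2m had -0.01 and 0.19, and Vamp1 and Cd27 beside Tapbpl had -0.09 and -0.04.

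Many other genes of the class I pathway were higher in treated cells. Each gene is represented below by its brightest tested probe, and 18.8% of 15672 tested genes were called higher and 12.9% lower. Of 14 tested class I heavy chain genes 11 were higher, 0 were lower and 3 did not pass, with a median log2 ratio of 2.76 against 0.03 for all tested genes. H2-K1 had 4.36 ± 0.12, H2-Q7 4.42 ± 0.59 and H2-T23 3.72 ± 0.50, whereas H2-Q4 had -0.07 ± 0.76. These genes are near copies of each other, so probes may bind several of them, and H2-Q1, among those called higher, was lower under both kinds of median centring. Of 6 tested immunoproteasome and PA28 genes 5 were higher and 0 lower (median 2.37). Of 7 tested class II genes 6 were higher and 0 lower (median 1.78). These included the chain genes H2-Eb1, H2-Ab1 and H2-Aa, all called higher, besides peptide loading genes. Cd74, the invariant chain, had 3.73 ± 0.31.

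Of 8 tested peptidases outside the endoplasmic reticulum, 3 were higher, 1 was lower and 4 did not pass. These counts rest on the scaling, with 7 higher and 0 lower under median centring over all probes and 6 higher and 1 lower over the tested probes. Lap3, a cytosolic leucine aminopeptidase, had 1.24 ± 0.09 (adjusted p = 0.000244) and the endosomal protease Ctss 1.27 ± 0.34 (adjusted p = 0.00288). Thop1, a cytosolic oligopeptidase that destroys class I peptides, had -0.82 ± 0.18 (adjusted p = 0.00269), and 0.15 under median centring over all probes.

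General folding factors of the endoplasmic reticulum rose in part. Of 26 tested genes of the calnexin cycle and lumenal chaperones 10 were higher and 0 lower, and the other 16 missed the threshold (median 0.29). Hsp90b1 had 1.05 ± 0.17, the mannosidase-like Edem1 0.96 ± 0.21 and Calu 0.87 ± 0.31, whereas Ppib had 0.23 ± 0.21 and did not pass. Of 16 tested protein disulfide isomerases and oxidases 8 were higher, 0 were lower and 8 did not pass (median 0.37), with Pdia4 at 0.93 ± 0.27 and Erp29 at 0.03 ± 0.14. Of 16 translocon and dislocation genes 4 were higher, 1 was lower and 11 did not pass (median 0.10), and the 1 lower, Sec61a1, was positive under both kinds of median centring. Under median centring over the tested probes the counts higher were 21, 14 and 12 for these 3 groups, against 2, 1 and 1 lower. Calr and Pdia3 lay within the range of the first 2 of these groups, which reached 1.05 and 0.93.

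**Figure D4:**
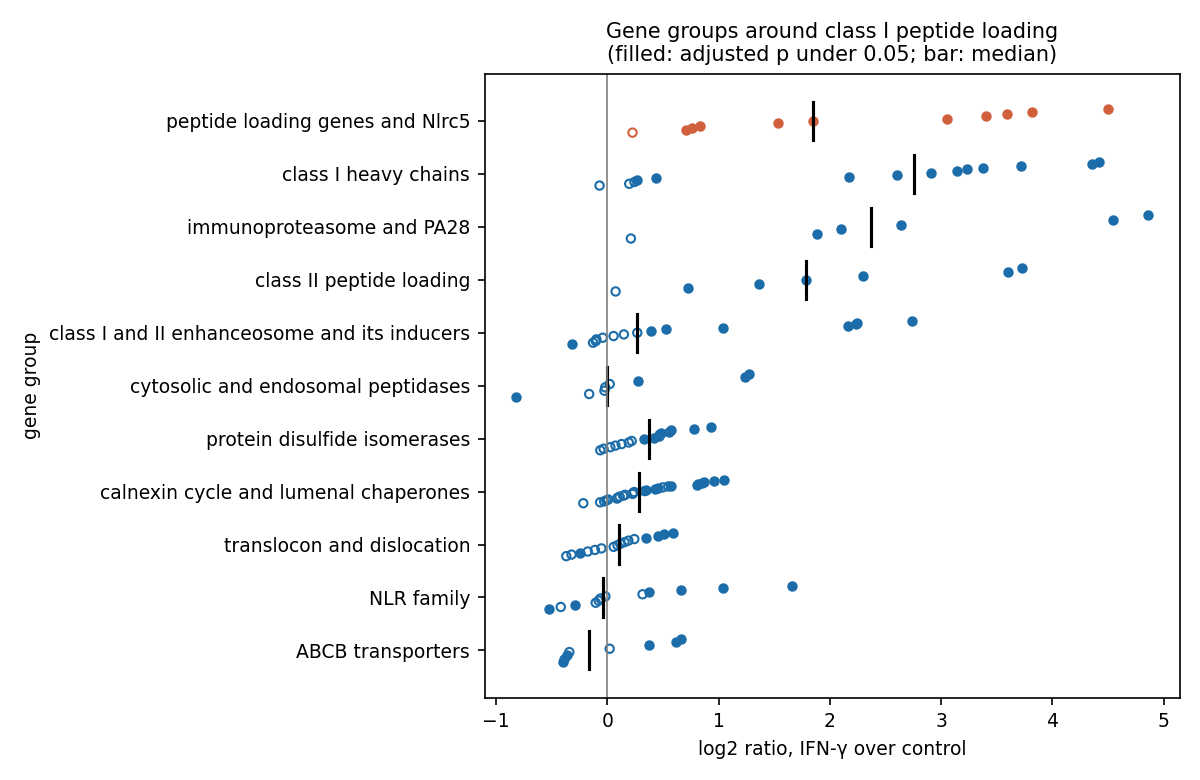
Mean log2 ratio of IFN-γ over control (x axis) for the 11 member probes (orange) and for the tested genes of 10 related groups (blue), filled where the adjusted p was under 0.05, with a bar at each group's median. Medians are 1.85 for the members, 2.76 for class I heavy chains, 0.37 for protein disulfide isomerases and -0.16 for ABCB transporters.

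Relatives of Nlrc5 and of the TAP subunits were called in both directions under loess. Of 12 tested NOD-like receptor genes 4 were higher, 2 were lower and 6 did not pass (median -0.04). Nod1, a sensor of bacterial peptidoglycan, had 1.66 ± 0.18, and Ciita, which does for class II what Nlrc5 does for class I, had 1.04 ± 0.60 (adjusted p = 0.0193). The lower 2, Nlrc3 and Nlrx1, were positive under median centring over all probes, where 8 of the 12 genes were higher and 2 lower. Of 8 tested transporters of the ABCB family 3 were higher, 3 were lower and 2 did not pass (median -0.16), and all 3 lower genes were positive under both kinds of median centring. Over all probes that centring gave 6 higher and 0 lower, and over the tested probes 3 higher and 1 lower. Abcb9, the TAP-like lysosomal peptide transporter, had 0.02 ± 0.05. A list of regulators of class I and class II genes and their inducers had 15 tested genes, with Ciita counted again. Of these 7 were higher, 1 was lower and 7 did not pass (median 0.27). Irf1, which drives Nlrc5 and class I genes, had 2.74 ± 0.20 on its brighter probe and 0.29 on the other. Irf9 and Stat2, parts of the complex that carries interferon signals to the nucleus, had 2.24 ± 0.11 and 2.23 ± 0.11. The 1 lower, Creb1, had -0.32 on its brighter probe and 0.40 on the other under loess. Its brighter probe was positive under median centring over all probes, where 13 genes were higher and 0 lower.

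Likeness of ratios was measured as the root mean square distance between log2 ratios over the 4 arrays. The ratios were not centred per gene, so the distance reflects the size of the change as well as its course over arrays. Nearest to Tap1 were Tgtp1, Oas1f and Ifi44, at distances of 0.12, 0.13 and 0.19. Nearest to B2m were C1s1, H2-Bl and C1s2, at 0.13, 0.18 and 0.19, and nearest to the first Nlrc5 probe were Bst2, Batf2 and H2-K1, at 0.21, 0.21 and 0.22.

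Markers of muscle were present in both groups, since all 8 of the myoblast and myotube markers were well above background in both channels on 4 of 4 arrays. Of these 5 were lower in treated cells, 0 were higher and 3 did not pass; desmin (Des) had -1.23 ± 0.26. Their summed linear intensity lay between 193570 and 234729 in treated RNA and between 271453 and 348379 in control RNA. In bulk RNA, fewer cells of a type and less RNA per cell cannot be told apart. Of 9 leukocyte markers 8 were on the array and 6 were tested, of which 0 were higher and 2 lower. Under median centring over all probes 5 muscle markers were higher and 0 lower, and over the tested probes 2 were higher and 2 lower. The direction of this group therefore rests on the scaling. Of the leukocyte markers 3 were higher and 3 lower over all probes, and 1 was higher and 3 lower over the tested probes. By the best probe of each, 6 leukocyte markers were well above background on 4 of 4 arrays in Cy5 and 4 in Cy3. The 4 were Adgre1, Csf1r, Itgam and Cd3e. The flag was common, with 28548 to 30146 of all 39429 probes well above background per array in Cy5 and 22453 to 25903 in Cy3. These marker counts therefore do not show whether leukocyte transcripts were present, and binding of other transcripts to the probes was not tested. Tyrobp and Lyz2, which mark myeloid cells, were not well above background in either channel on any array. Summed leukocyte marker intensity was 44775 to 71437 in treated RNA and 56695 to 80094 in control RNA, nearly all of it from the Itgam probe. Without Itgam, whose log2 ratio was -0.14 ± 0.35 and did not pass, the sums were 1531 to 1795 in treated RNA and 1981 to 2235 in control RNA. Of 3 tested endothelial markers 0 were higher and 1 lower, and of the adipocyte markers none was well above background on all arrays. The part of the muscle marker levels, which were lower under loess, in the members' ratios was not tested.

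**Figure D5:**
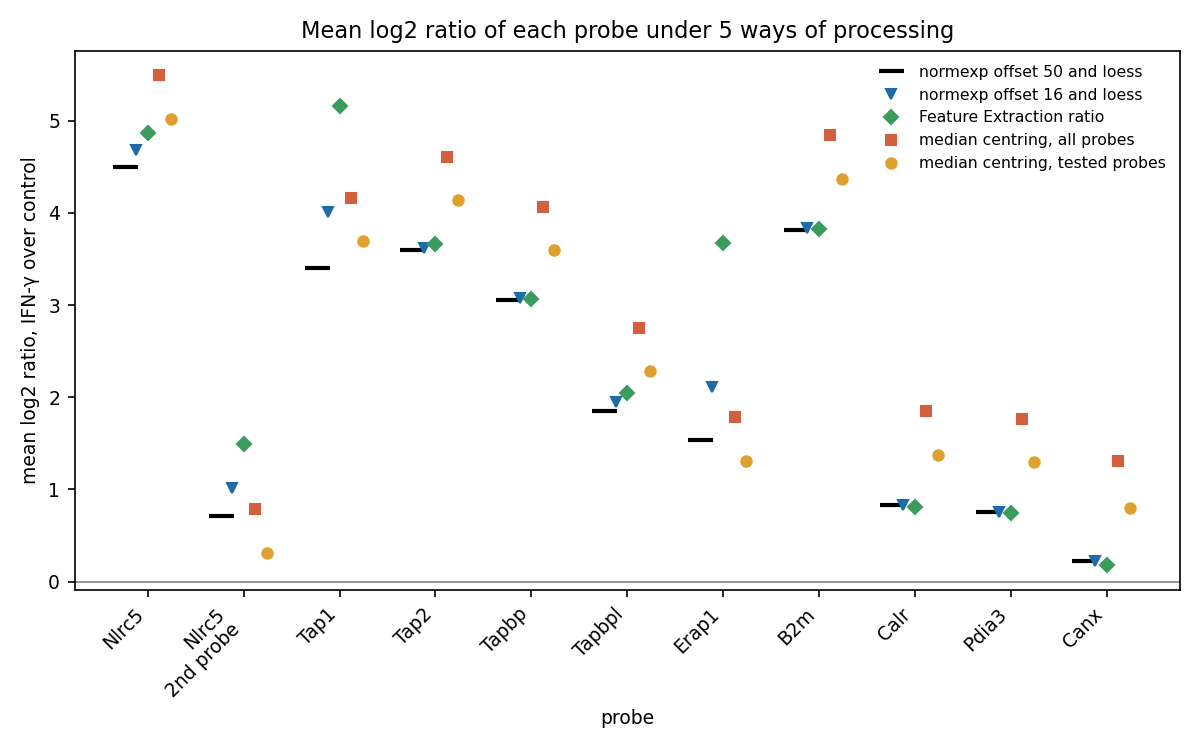
Mean log2 ratio of IFN-γ over control for the 11 probes (x axis) under 5 ways of background correction and scaling (symbols). Every value is above 0; Tap1, Erap1 and the second Nlrc5 probe, which are dim in control RNA, move most between background settings, while the bright probes shift by about the same amount under median centring.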

How the data were processed

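Per the file headers, the deposited spot intensity values come from Agilent's Feature Extraction software, version 10.7.3.1. The deposited files hold median spot and background intensities per channel and a log10 ratio of Cy5 over Cy3, which the authors computed from dye-normalised signals, per the file headers. The deposited value table is in log2 units; over tested probes it had a slope of 3.32 on the scanner log10 ratios and a correlation of 1.00, so its direction is Cy5 over Cy3, with column medians of 0.00, 0.03, 0.03 and 0.01 and an unstated centring. Per the design text, the authors used GeneSpring.

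Median intensities were corrected with normexp (offset 50), loess-normalised within arrays with control spots at weight 0, and tested per probe in limma 3.58.1 under R 4.3.3 (lmFit and eBayes, mean log2 ratio against 0, two-sided, Benjamini-Hochberg over 28920 probes). Spots flagged as outliers did not enter, and a probe's remaining spots were averaged; a probe with several spots counted as above background when most of its spots were. Channel levels are after Aquantile normalisation. Median raw intensities were 224, 149.5, 264 and 234 in Cy5 and 97, 81, 79.8 and 92 in Cy3 for replicates 1 to 4; the number of arrays limits the precision. Symbols came from RefSeq accessions (26055 of 39429 probes). The members and gene lists were chosen with earlier results of these data known. Named list genes are the 3 called with the largest change and the 2 brightest not called, plus genes needed to explain a count or a neighbour, which were chosen after their values were seen.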

Additional observations from a re-analysis of the deposited data

Results flagged for a closer look

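Dixon's gap test was applied to 90 sets of 4 array values (the members' log2 ratios and channel levels and the ratios of named genes), and 7 had 1 array far from the others; chance gives about 1 in 20. Among the members, the Nlrc5 ratio had a gap of 0.937 of its range, with 4.79 on replicate 1 against 4.39 to 4.41 on the other arrays. The Tapbp ratio had a gap of 0.843, with 2.42 on replicate 2 against 3.19 to 3.33. Replicate 2 was also apart for H2-Q7 (0.936, 3.54 against 4.68 to 4.76), H2-T23 (0.858, 2.97 against 3.89 to 4.04) and, upward, for H2-Q4 (0.848, 1.06 against -0.56 to -0.31). Ctss had a gap of 0.884, with 1.78 on replicate 1 against 1.08 to 1.16, and Rcn3 had 0.831, with -0.16 on replicate 4 against 0.23 to 0.31. Replicate 2 had the lowest raw median in Cy5, 149.5; its part in these gaps was not tested. Without replicate 2 the Tapbp ratio was 3.26, and without replicate 1 the Nlrc5 ratio was 4.40.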

How the results depend on the processing

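Across 15 alternatives no member ratio changed sign. Of 160 member ratios recomputed, 154 kept their side of the threshold, 4 lost a call (Calr without replicates 1 and 3, Pdia3 without replicates 3 and 4) and 2 gained one (Canx under both kinds of median centring). The count of member probes called higher was 10 and ranged from 8 to 10 when 1 replicate was left out; 0 were lower under any setting. When a probe had to pass the background filter in Cy5 and Cy3 on every array, 7 member probes were tested and 7 were higher. Of all 21735 probes tested under that filter 4085 were higher and 3487 lower. Over all probes, calls higher and lower were 16462 and 6321 under median centring over all probes, 10476 and 10980 under centring on the tested probes, and 3043 and 2106 with 1 probe per gene, which tests fewer probes. The methods' t-test called 3954 higher and 2364 lower, of which 411 and 241 were at least 2-fold, and called 10 member probes higher. Leaving out 1 replicate gave 1910 (without replicate 3) to 6324 (without replicate 2) higher and 1153 to 5548 lower. Where not stated, the cause was not tested. The fit was paired by array, because each ratio sets treated against control RNA within 1 array. All arrays lay on 1 slide with 1 dye orientation, so neither could be tested; signal over background limits Tap1, Erap1 and the second Nlrc5 probe.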
